A study of Homo sapiens with 6 samples.

Results

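The 9 genes are POLA1, ATAD2, CTBP2, CCAR1, P4HA2, BAIAP2L1, DEPDC1, RAD50 and TENT2. In each, RNA segments listed in 2 RNA immunoprecipitation and sequencing (RIP-seq) experiments on the splicing factor SF3B4 overlapped. In RIP-seq an antibody pulls down a protein and the RNA that comes with it is sequenced. The 6 libraries came from wild-type HEK293T, a human line of embryonic kidney origin with the SV40 large T antigen. They formed 3 groups (anti-SF3B4, non-specific IgG and input) with 1 library of each in the experiments RIP-1 and RIP-2, and nothing in the labels says whether the experiments used separate cultures. The authors deposited 1 list named mRNA and 1 named NotExon per experiment, here called mRNA list and non-exon list. The sources used here do not define these names, and an interval of an mRNA list is called a segment.

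The genes were chosen by the measured scores. Among 710 pairs of RIP-1 and RIP-2 segments that overlapped on the same strand, they hold 9 of the 10 pairs whose lower score was highest. The score starts at 50 and appears to be the p-value of the peak caller MACS, as a negative log10 multiplied by 10. It is the authors' value, as is the fold enrichment of non-exon peaks used further on. For segments only the score was available, so their fold enrichment and false discovery rate are unknown. All peaks that overlapped the 9 loci (hg19, 973 kb in all) by 1 bp or more were then taken. This gave 19 of 10960 RIP-1 segments, 32 of 10280 RIP-2 segments, 21 of 25797 RIP-1 non-exon peaks and 96 of 134094 RIP-2 non-exon peaks. Every list is a single call without replicate error, and read depth is unknown.

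SF3B4 belongs to SF3b, a complex within the U2 small nuclear ribonucleoprotein, which holds the branch site of an intron while the spliceosome assembles. Its contacts lie in the intron, near the 3′ splice site and so close to the start of the next exon. The title of the series also names METTL16, a methyltransferase that places N6-methyladenosine on RNA. RIP recovers whole RNAs and fragments without marking the contact itself, so a peak shows where recovered RNA was dense, not which base was bound.

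The 9 genes have unlike functions. POLA1 is the catalytic subunit of DNA polymerase alpha, which starts DNA strands at replication, and RAD50 is a part of the MRE11 complex that processes broken DNA ends. ATAD2 is a chromatin protein with an ATPase and a bromodomain, CTBP2 is a transcriptional corepressor, and CCAR1 is a coactivator of transcription that acts in cell-cycle and apoptosis control. DEPDC1 is a protein of dividing cells. TENT2, also known as GLD2, adds adenosines to the tails of RNAs. P4HA2 is an alpha subunit of the prolyl hydroxylase of collagen, and BAIAP2L1 links membranes to actin.

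The chosen segments scored above the median of each list but far below its maximum. All lay within the top 19.4% of the RIP-1 list and the top 10.7% of the RIP-2 list. RIP-1 scores ranged from 142 to 256 (list median 79.9, maximum 3218) and RIP-2 scores from 159 to 287 (list median 79.6, maximum 3100). The RIP-2 score was the higher one for 6 genes and the RIP-1 score for 3. These scores chose the genes, so they are a description. Just inside the limit lay RAD50 with a lower score of 143 and TENT2 with 142. Just outside lay a segment on chromosome 1 that starts at 203787697 (140), 1 on chromosome 9 that starts at 111640274 (139.8) and 1 on chromosome 22 whose RIP-1 start is 31892124 (133). One pair within the first 10, on chromosome 19 with a RIP-1 start of 37642632 (144), is not among the 9 genes.

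For POLA1 both lists held the same plus-strand segment of chromosome X, 24766427 to 24766577. It scored 256 in RIP-1 and 185 in RIP-2, which placed it in the top 8.25% and 7.14% of the lists. The RAD50 segment lay on the plus strand of chromosome 5, with starts at 131892629 (RIP-1) and 131892635 (RIP-2) and a common end at 131893145. Its scores were 143 and 159, the latter the lowest RIP-2 score of the 9 chosen segments.

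The 3 genes of chromatin and transcription had segments with identical edges. ATAD2 had the highest RIP-2 score of the 9, with 287 for the minus-strand segment 124382060 to 124382264 of chromosome 8, and 183 in RIP-1. In RIP-2 that segment ranked 185 of 10280, in RIP-1 1437 of 10960. The CTBP2 segment, minus strand of chromosome 10, 126847203 to 126847384, scored 176 (RIP-1) and 213 (RIP-2). The CCAR1 segment, plus strand of chromosome 10, 70530962 to 70531202, scored 238 and 171, so here RIP-1 was the higher.

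The remaining 4 genes held both the narrowest and the widest chosen segments. The P4HA2 segment (minus strand of chromosome 5, 131533898 to 131533964) spanned 66 bp and scored 170 (RIP-1) and 224 (RIP-2). The DEPDC1 segment (minus strand of chromosome 1, 68947728 to 68948580) spanned 852 bp and scored 147 and 196. The TENT2 segment started at 78981021 on the plus strand of chromosome 5 in both lists and ended at 78982170 in RIP-1 and 78982226 in RIP-2, with scores of 142 and 185. For BAIAP2L1, on the minus strand of chromosome 7, the RIP-1 segment from 97920961 to 97921872 (score 192) and the RIP-2 segment from 97921450 to 97922764 (score 167) had 422 bp in common and no common edge.

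Both edges were equal for 6 of the 9 genes (66.7%) and 1 edge for another 2, RAD50 and TENT2. Among all 710 overlapping pairs, 65.9% had both edges equal, so the share of the 9 genes was close to that of the whole lists. The chosen segments of POLA1, CTBP2 and P4HA2 were under 200 bp, while the shortest non-exon peaks measured 206 bp (RIP-1) and 200 bp (RIP-2). The edges may therefore not be those of the peaks as called.

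**Figure D1:**
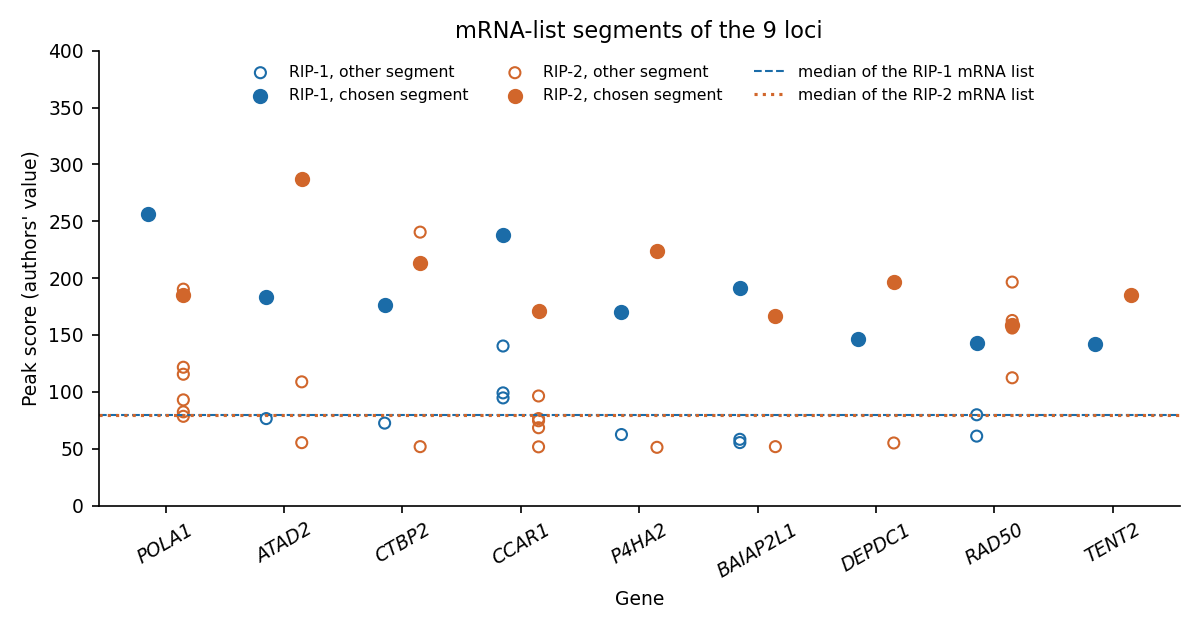
Deposited score of every mRNA-list segment in the 9 loci, by gene, for RIP-1 (blue) and RIP-2 (orange); filled points are the chosen segments, open points the other segments, and the dashed and dotted lines the list medians (79.9 and 79.6). In RIP-1 the chosen segment is the highest of its gene in 9 of 9 loci, in RIP-2 in 6 of 9.

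Besides the chosen segments, the loci held 10 segments in RIP-1 and 23 in RIP-2, all on the strand of the chosen segment. RIP-2 had more segments than RIP-1 in 6 loci, as many in 2 (P4HA2 and TENT2) and fewer in BAIAP2L1. Summed over the loci there were 1.68 times as many RIP-2 as RIP-1 segments, while the whole RIP-2 list was 0.938 times as long as the RIP-1 list. POLA1 held much of this difference: without it, 18 RIP-1 and 25 RIP-2 segments remained. Median scores of the other segments were 74.5 in RIP-1 (range 55.4 to 140) and 92.9 in RIP-2 (range 51.2 to 240).

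Of these other segments, 1 was shared, the second CCAR1 segment from 70532744 to 70532856, which again had equal edges and scored 140 in RIP-1 and 68.4 in RIP-2. All told, 10 of the 19 RIP-1 segments (52.6%, 95% Wilson interval 31.7 to 72.7) and 10 of the 32 RIP-2 segments (31.2%, interval 18.0 to 48.6) were shared. In the whole lists 6.41% of RIP-1 and 6.91% of RIP-2 segments were shared. The rule asked for a shared segment in every locus, so nothing is read from that difference. These intervals cover counting error only and take peaks as independent, which they are not. With an overlap of 50% or more of each segment, 9 RIP-1 segments stayed shared and the BAIAP2L1 pair was lost.

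POLA1 showed the widest gap between the experiments, with 1 RIP-1 and 7 RIP-2 segments. The RIP-2 segments lay between the 5′ edge and 38.6% of the way along the locus, and none lay beyond, where non-exon peaks were found in both lists. The strongest was not the chosen segment but the one from 24828824 to 24828917, with a score of 190. RAD50 had 3 RIP-1 and 6 RIP-2 segments. Among the latter, 5 scored between 156 and 197, and the highest, 197, lay from 131931264 to 131931502. The other RIP-1 segments of RAD50 were weak, with scores of 61.1 and 79.8.

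Among the genes of chromatin and transcription, CTBP2 had its strongest RIP-2 segment from 126822080 to 126822181 with a score of 240, above the 213 of the chosen one, and RIP-1 had no segment there. CTBP2 held 2 segments in RIP-1 and 3 in RIP-2. ATAD2 also held 2 and 3, and its other segments scored 76.5 in RIP-1 and 55.3 and 109 in RIP-2. CCAR1 had 4 RIP-1 and 6 RIP-2 segments. In RIP-1 a pair of CCAR1 segments lay near the 5′ edge, from 70481008 to 70481420 and from 70482211 to 70482334, with scores of 94.7 and 99.1. The RIP-2 segments of CCAR1 started further in, at 70496632 and beyond.

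DEPDC1 had 1 RIP-1 and 2 RIP-2 segments, the second of which scored 55.03. TENT2 was the sparsest, with 1 segment in each list. P4HA2 held 2 in each list, the other ones scoring 62.4 in RIP-1 and 51.2 in RIP-2. BAIAP2L1 had 3 segments in RIP-1 and 2 in RIP-2, of which all but the chosen ones scored between 51.8 and 58.3. In these 4 genes no segment besides the chosen one passed the list median.

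**Figure D2:**
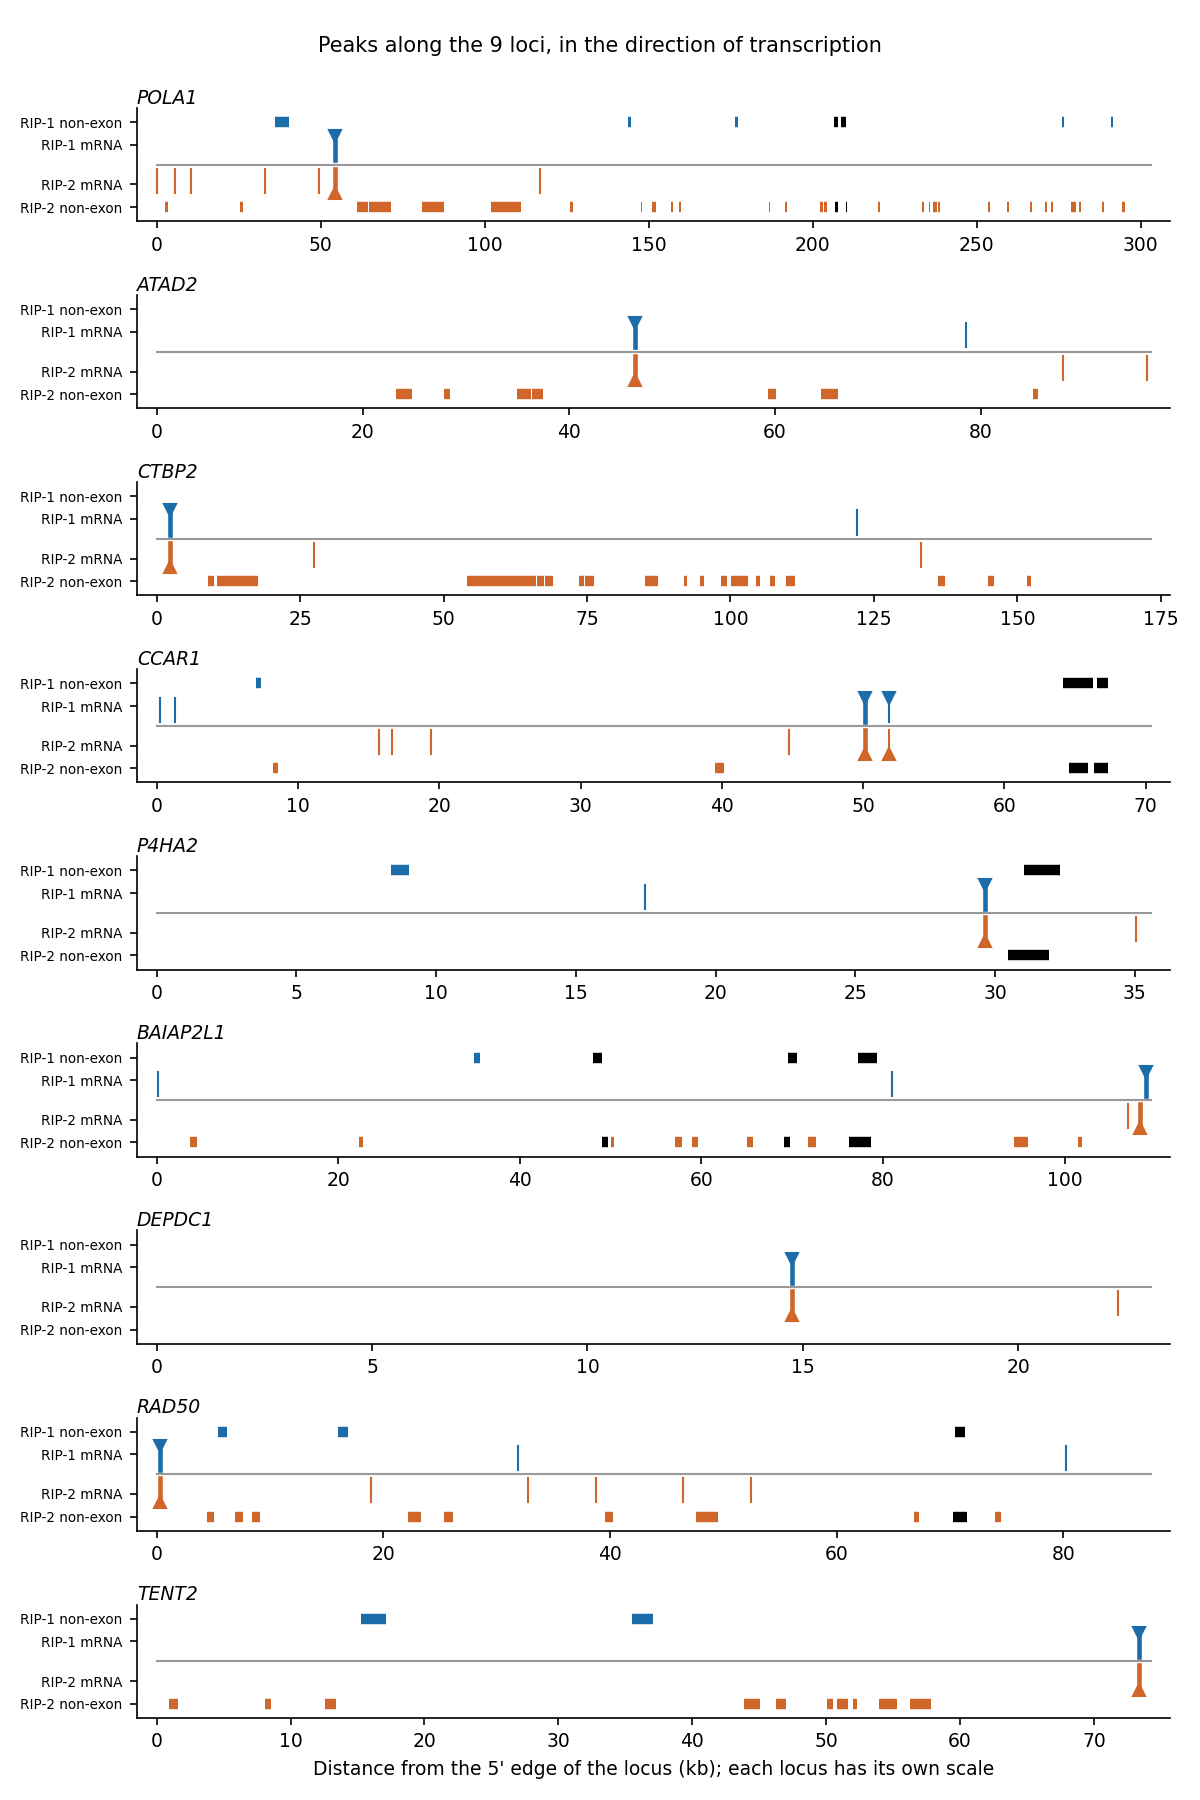
Peaks along each of the 9 loci from the 5′ to the 3′ edge (kb, a scale per locus), with RIP-1 (blue) above and RIP-2 (orange) below the line. Vertical bars are mRNA-list segments (thick, chosen; triangle, shared) and horizontal bars are non-exon peaks (black, shared); the chosen segments stand at 0.294% of the locus in RAD50 and at 99.6% in BAIAP2L1.

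The chosen segments lay at all depths of their genes when the locus edges given for the genes were read along the strand of the segments. By the RIP-1 midpoint, RAD50 stood at 0.294% of the locus, CTBP2 at 1.35% and POLA1 at 18.0%. ATAD2 stood at 48.1%, DEPDC1 at 63.9%, CCAR1 at 71.2% and P4HA2 at 83.3%. TENT2 at 98.8% and BAIAP2L1 at 99.6% were at the 3′ edge. The locus edges were not checked against an annotation. In RAD50 and in BAIAP2L1 an end of the chosen RIP-1 segment fell exactly on a locus edge. Of all segments in the loci, 9 of 19 in RIP-1 and 17 of 32 in RIP-2 lay before the middle.

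Segments at the 3′ edge were found in more genes in RIP-2, which had 32 segments in the loci, than in RIP-1, which had 19. Within 500 bp of that edge, RIP-2 had segments in 5 genes (ATAD2, P4HA2, BAIAP2L1, DEPDC1 and TENT2) and RIP-1 in 2 (BAIAP2L1 and TENT2). The 3 that only the RIP-2 list held were weak, with scores of 55.3 for ATAD2, 51.2 for P4HA2 and 55.03 for DEPDC1, near the lowest score of 50. Within 100 bp of the 5′ edge, RIP-1 had segments in 3 genes (CCAR1, BAIAP2L1 and RAD50) and RIP-2 in 2 (POLA1 and RAD50). The BAIAP2L1 segment, from 98030113 to 98030427, ended at the locus edge and scored 55.4, and the POLA1 segment, from 24712035 to 24712121, began 29 bp before it and scored 78.5. RAD50 was thus the one gene with a 5′ segment in both lists. Both distances were set after the positions were seen, and the counts depend on the unchecked locus edges.

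The start regions of these 4 genes are shown because segments of the lists lay within 100 bp of the locus edge. They are RefSeq sequences of build GRCh38.p14 and not of hg19, so they were not lined up with the segments base by base. Each line gives 120 bases before the gene start in lower case and the first 30 transcribed bases in capitals, 5′ to 3′ on the strand of the gene. The windows are chrX:24693798-24693947 on the plus strand for POLA1, chr5:132556857-132557006 on the plus strand for RAD50, chr10:68721119-68721268 on the plus strand for CCAR1 and chr7:98401061-98401210 on the minus strand for BAIAP2L1.
POLA1: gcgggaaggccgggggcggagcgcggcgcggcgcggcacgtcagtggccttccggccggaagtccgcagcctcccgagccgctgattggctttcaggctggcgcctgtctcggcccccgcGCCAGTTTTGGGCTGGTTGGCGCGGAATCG
RAD50: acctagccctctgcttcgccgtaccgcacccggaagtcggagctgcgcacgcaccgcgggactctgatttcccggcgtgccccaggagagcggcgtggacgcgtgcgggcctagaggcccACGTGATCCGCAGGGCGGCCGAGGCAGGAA
CCAR1: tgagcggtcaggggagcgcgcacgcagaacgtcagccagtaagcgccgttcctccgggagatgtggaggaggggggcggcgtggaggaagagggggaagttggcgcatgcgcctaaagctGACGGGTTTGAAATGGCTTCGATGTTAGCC
BAIAP2L1: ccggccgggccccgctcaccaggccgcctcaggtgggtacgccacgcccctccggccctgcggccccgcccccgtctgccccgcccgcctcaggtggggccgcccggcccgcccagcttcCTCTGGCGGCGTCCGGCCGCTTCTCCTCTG

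All 4 windows are rich in G and C, from 63.3% in CCAR1 and 71.3% in RAD50 to 74.7% in POLA1 and 82.0% in BAIAP2L1. The letters CCGGAAG hold the GGAA core to which transcription factors of the ETS family bind, and both strands were searched for them. They stand in the windows of POLA1, at 2 places on opposite strands, and of RAD50, at 1 place on the gene strand. A RefSeq promoter of 300 bases was found for 8 of the 9 genes, and the letters stood in 3 of these 8 (POLA1, RAD50 and TENT2). They stood in 10.3% of the 35116 promoters of the same length. This motif was chosen after the sequences were seen and is a description of the DNA, not of SF3B4 binding.

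Non-exon peaks, which the rule did not use, were denser in the loci than over all chromosomes in both experiments. RIP-1 had 21 in the loci, or 2.16 per 100 kb against a list mean of 0.834, and RIP-2 had 96, or 9.87 per 100 kb against 4.33. These are 2.59 and 2.28 times the list means. The list means count all chromosome lengths, also the DNA between genes and genes that are silent. Both lists of an experiment come from the same call, so these peaks are not independent of the choice of genes. No gene annotation of hg19 was used here, so other genes were not set beside the 9. Whether the density is particular to them was not tested. The ratio of RIP-2 to RIP-1 peaks was 4.57 in the loci and 5.2 in the whole lists.

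**Figure D3:**
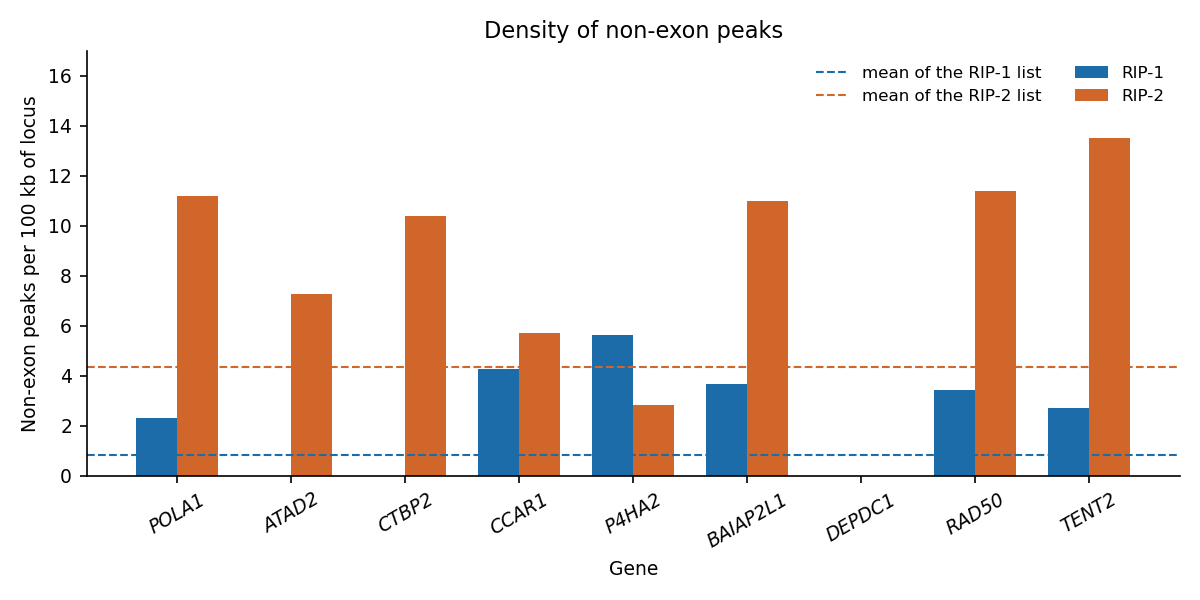
Non-exon peaks per 100 kb of locus for RIP-1 (blue) and RIP-2 (orange), by gene, with dashed lines for the means of the whole lists (0.834 and 4.33). TENT2 is highest in RIP-2 with 13.5 and P4HA2 highest in RIP-1 with 5.62, and DEPDC1 has none in either list.

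The genes differed among themselves in these peaks. DEPDC1, the shortest locus with 23.1 kb, had none in either list. ATAD2 and CTBP2 had none in RIP-1, although their loci measure 96.5 and 173 kb, and had 7 and 18 in RIP-2. POLA1, the longest locus with 303 kb, held 7 in RIP-1 and 34 in RIP-2. P4HA2 was the one locus with more in RIP-1 than in RIP-2, with 2 and 1.

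Per length, P4HA2 and CCAR1 were the densest in RIP-1, with 5.62 and 4.27 peaks per 100 kb. Apart from DEPDC1 they were the sparsest in RIP-2, with 2.81 and 5.69. Their rates rest on few peaks, 2 (RIP-1) and 1 (RIP-2) in P4HA2 and 3 and 4 in CCAR1. TENT2 (13.5), RAD50 (11.4), POLA1 (11.2), BAIAP2L1 (11.0) and CTBP2 (10.4) were the densest in RIP-2. In RIP-1 these 5 loci had 2.69, 3.42, 2.31, 3.65 and 0.0 peaks per 100 kb. The loci above the list mean were 6 of 9 in RIP-1 and 7 of 9 in RIP-2.

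Long non-exon peaks stood in POLA1 and CTBP2. Of the 96 RIP-2 peaks in the loci, 8 measured 3 kb or more (8.33%, against 0.441% of the whole RIP-2 list), and 6 of them lay in POLA1 and 2 in CTBP2. The longest peak of the whole RIP-2 non-exon list was in CTBP2, from 126783432 to 126795598, with 12167 bp, a score of 111 and a fold enrichment of 8.02. Another CTBP2 peak, from 126831992 to 126839161, measured 7170 bp and ranked 26 of 134094 by length. In POLA1 the long peaks had midpoints between 20.7% and 35.8% of the locus, which is between the chosen segment at 18.0% and the strongest RIP-2 segment at 38.6%. RIP-1 had 1 of 21 peaks of that length in the loci (4.76%, against 2.54% of the whole RIP-1 list), also in POLA1, from 24748270 to 24752434, with a score of 228. That peak had the lowest false discovery rate of the RIP-1 non-exon peaks in the loci, 30.45% as the authors' list gives it. These peaks were singled out after their values were seen.

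The fold enrichment of the non-exon peaks was modest in the loci. Its median was 5.29 in RIP-1 (range 4.03 to 11.3) and 6.96 in RIP-2 (range 3.55 to 17.8), below the list medians of 6.55 and 8.19 in both experiments. A fold above the list median was reached by 6 of 21 RIP-1 and 29 of 96 RIP-2 peaks. The median score was 76.4 in RIP-1 (list 66.9) and 81.8 in RIP-2 (list 80.6), and the median lengths were 961 and 785 bp against 710 and 564 bp. Peaks of the loci were thus longer and of lower fold than the middle of their lists, and with 1 list per experiment this was not tested. The false discovery rate stood at 100% for 18 of 21 RIP-1 peaks (85.7%, against 94.1% of the list) and for 43 of 96 RIP-2 peaks (44.8%, against 41.6%). The lowest rate among the RIP-2 peaks of the loci was 68.8%.

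By gene, the highest RIP-1 folds were in CCAR1, with 11.3 from 70488004 to 70488341, and in RAD50, with 10.7 from 131908665 to 131909486. Neither overlapped a RIP-2 peak. POLA1 followed with 8.69, P4HA2 with 6.61, TENT2 with 6.18 and BAIAP2L1 with 5.29. In RIP-2 the highest folds were 17.8 in RAD50, 13.3 in CTBP2, 11.3 in POLA1, 10.6 in BAIAP2L1 and 10.1 in ATAD2. TENT2 reached 9.15, P4HA2 9.06 and CCAR1 8.67.

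**Figure D4:**
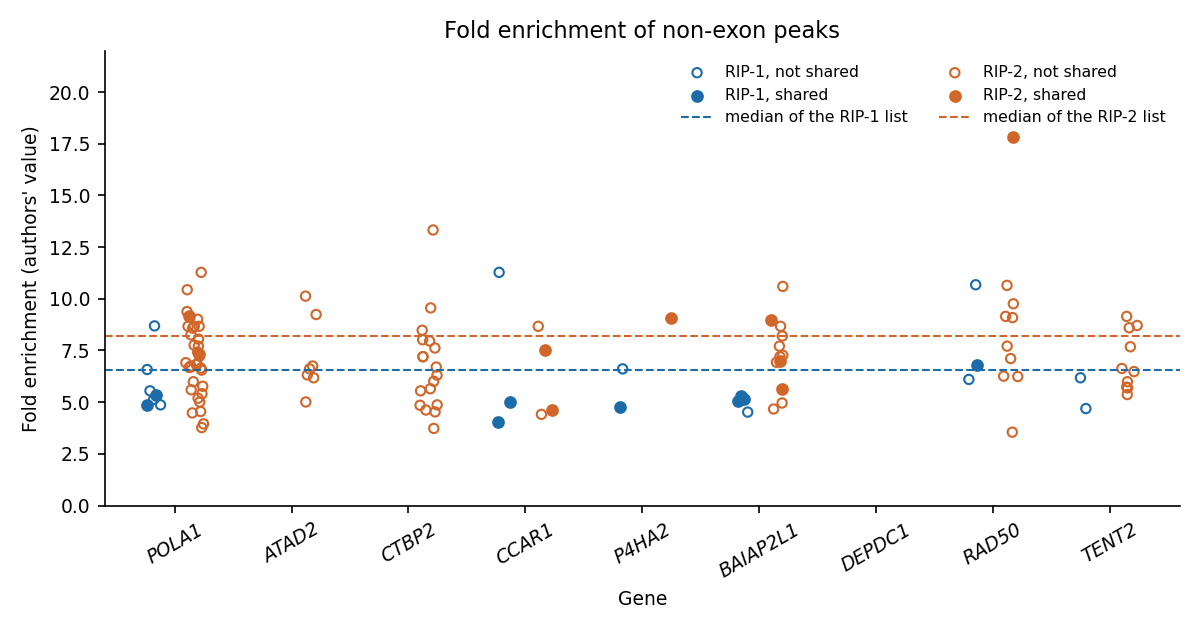
Deposited fold enrichment of each non-exon peak in the 9 loci, by gene, for RIP-1 (blue) and RIP-2 (orange); filled points overlap a peak of the other experiment, and dashed lines are the list medians (6.55 and 8.19). Points are spread sideways so that they can be told apart; the shared RAD50 peak of RIP-2 stands highest with 17.8.

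Non-exon peaks called in both experiments were found in 5 of the 9 genes. Of the 21 RIP-1 peaks in the loci, 9 overlapped a RIP-2 peak (42.9%, 95% Wilson interval 24.5 to 63.5), against 18.1% of the whole RIP-1 list. From the RIP-2 side, 9 of 96 peaks overlapped (9.38%, interval 5.01 to 16.9), against 3.63% of the whole RIP-2 list. Both intervals cover counting error only and take peaks as independent, which they are not, so no excess is read from them. RIP-2 peaks covered 12.7% of the loci and 2.81% of all chromosomes, and RIP-1 peaks 2.65% and 0.781%. The part of this denser cover in the higher shares was not tested. Under a stricter rule, an overlap that takes up 50% or more of each peak, 6 of 21 remained shared, against 12.3% of the RIP-1 list.

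RAD50 held the shared peak with the highest fold in both lists and the highest RIP-2 score. It spanned 131963099 to 131963969 in RIP-1, with a score of 95.3 and a fold of 6.80, and lay wholly inside the RIP-2 peak from 131962918 to 131964159, with a score of 429 and a fold of 17.8. By score the RIP-2 peak ranked 345 of 134094, and it stood at 80.9% of the locus. In RIP-1 its score was below those of shared peaks in BAIAP2L1 (118), CCAR1 (116) and P4HA2 (106). The false discovery rate in the lists was nevertheless 100% on both sides.

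BAIAP2L1 had 3 shared non-exon peaks by an overlap of 1 bp, and 1 by the stricter rule, under which CCAR1 kept its 2. One paired 97951058 to 97953171 in RIP-1 (fold 5.07) with 97951719 to 97954129 in RIP-2 (fold 6.98, score 236). Another, from 97959914 to 97960935 in RIP-1, shared 278 bp with its RIP-2 partner. The last, from 97981388 to 97982330, touched its partner by 18 bp.

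CCAR1 had 2 shared non-exon peaks that followed each other near the 3′ edge. The first ran from 70545092 to 70547212 in RIP-1 (fold 5.01) and from 70545523 to 70546870 in RIP-2 (fold 7.54). The second ran from 70547490 to 70548284 (fold 4.03) and from 70547341 to 70548272 (fold 4.64).

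POLA1 also had 2 shared non-exon peaks, of which 1 overlapped well. It ran from 24918644 to 24919669 in RIP-1 (fold 5.34) and from 24918861 to 24919874 in RIP-2 (fold 7.35). The other touched its partner by 12 bp. In P4HA2, 1 pair ran from 131531226 to 131532536 in RIP-1 (fold 4.78) and from 131531638 to 131533084 in RIP-2 (fold 9.06), and the RIP-2 peak ended 814 bp before the chosen segment in genome order.

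Fold enrichment was higher in RIP-2 in 9 of the 9 shared pairs, and the score in 6. The RIP-2 list as a whole also has the higher median fold (8.19 against 6.55). In RIP-1 the shared peaks had a median fold of 5.07 and the 12 unshared ones 6.14, and in RIP-2 the medians were 7.54 for the 9 shared and 6.83 for the 87 unshared peaks. Past the middle of their locus lay 8 of the 9 shared and 3 of the 12 unshared RIP-1 peaks. Among RIP-2 peaks these were 8 of 9 and 51 of 87. This split by position was seen after the values were known and was not tested.

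No segment of the mRNA lists in the 9 loci met a non-exon peak of the other experiment. Such an overlap was found for 0 of 19 RIP-1 segments and 0 of 32 RIP-2 segments. At about 95% confidence these counts allow shares of up to 15.8% and 9.38%. In the whole lists 0.173% of RIP-1 and 0.214% of RIP-2 segments had such an overlap. That is below what 19 and 32 segments can show. The split of each call into an mRNA and a NotExon list may also make such overlaps rare by construction. Nothing is therefore read from the counts of 0.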

How the data were processed

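RNA was measured by RIP-seq in 6 HEK293T libraries. Per the submitters' processing notes, cutadapt 1.9.3, HISAT2 2.0.4 and build hg19 were used. Peaks are named in the manner of MACS, per the files; the version, settings and control library are not stated there or in the labels. The authors deposited 1 call per experiment, split into an mRNA and a NotExon list. The deposited score, fold enrichment (a ratio to the control) and false discovery rate in percent have no header, and were identified from their values and column order.

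Locus edges were those given with the gene names and were not checked against an annotation. Shared means an overlap of at least 1 bp, on the same strand for mRNA lists. Density used the last peak end on each chromosome as its length. Positions are as deposited; the counting base of the mRNA lists is unknown, with an uncertainty of 1 bp. No test over samples was possible with 1 list per experiment. The overlap code was tested on simulated lists (Python 3.11.15, pandas 2.3.3).

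The genes and the comparisons were chosen with earlier results of these data known. By rule, the text covers all 9 genes, their mRNA-list segments, shared non-exon peaks, the non-exon peak of highest fold per list, and the next 3 pairs outside the rule. Some segments and peaks are given only within counts, score ranges or folds, without positions. Other annotation of hg19, its sequence, and partner genes of the 9 were not used here. Alternatives were a stricter overlap, midpoints, strand, the upper 50% by score, equal list lengths, other reference chromosomes and leaving out the longest locus.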

Additional observations from a re-analysis of the deposited data

How the results depend on the processing

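Of 34 alternative values, 29 stayed within 1.5 times the reported one, and some of these stood at that limit. At the limit were 14 against 21 RIP-1 non-exon peaks and 6 against 9 shared non-exon peaks. The strand setting could not change the segment counts, since all segments already lay on the strand of the chosen one. Asking for the peak midpoint inside the locus changed no value, so the tally says little about robustness. Every alternative lowered the number of shared non-exon peaks. By the midpoint of the RIP-1 peak, 6 of 21 were shared, against 14.3% of the list. With the upper 50% of each list by score, 12 RIP-1 segments, 51 RIP-2 non-exon peaks and 5 shared non-exon peaks remained in the loci, fewer by construction. Without POLA1, the longest locus, 62 RIP-2 non-exon peaks remained, again by construction, while their density was 2.14 times the list mean. With the RIP-2 non-exon list cut by score to the length of the RIP-1 list, 4 of 21 RIP-1 peaks were shared, against 4.69% of the list. No paired analysis was possible because the lists give 1 call for each experiment and hold nothing per library. Leaving out an experiment leaves the values of the other, which are given separately. Unknown depth limits every comparison of scores, folds and numbers between the experiments.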
